A study of Arabidopsis thaliana with 4 samples.

Results

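The genes described here are 145 probe sets of an Affymetrix Arabidopsis array whose signal was high on the array labelled ppi2 replicate 2 and the array labelled wild type replicate 1, and low on the arrays labelled ppi2 replicate 1 and wild type replicate 2. They were chosen by those signals. The lower value of the first arrays, called the high arrays below, had to be at least 400 and at least 4 times the higher value of the other arrays, called the low arrays, and that higher value had to be at least 50. This held for 154 of 22746 probe sets that were not controls, or 0.677%. Of these, 2 genes of the plastid genome and 7 named genes (LHCB4.2, PORB, PSAN, COR15A, COR15B, IAA29 and EXPA8) were left out. The contrast between high and low arrays is therefore how the genes were picked and is given as a description, with no test. All 145 probe sets passed the filter on low signal used in the fit across all probe sets. The rule ensured this, because 400 on each high array puts the mean over arrays above the 124 that the filter asked.

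The study measured total RNA of whole Arabidopsis thaliana plants on 4 arrays. The ppi2 group was 2 arrays of the import mutant ppi2 at 20 days, and the wild-type group was 2 arrays of wild-type plants at 10 days, so genotype and age cannot be told apart. As background, ppi2 is a T-DNA insertion in TOC159, which encodes a receptor of the chloroplast import machinery, and its seedlings are albino. All plants grew on agar plates in long days without further treatment. The labels call the replicates biological but say neither how they were grown apart nor how many plants were pooled.

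Most proteins of the chloroplast are encoded in the nucleus, made as precursors in the cytosol and taken up through the import machinery. Antenna proteins bind chlorophyll and pass light energy to the photosystems. Their genes, and many other nuclear genes for plastid proteins, are known to be transcribed together, under the control of light, of GOLDEN2-LIKE factors and of signals from the plastid to the nucleus. Plants whose plastids are damaged or fail to green carry less of these transcripts.

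The arrays did not sort by their labels. Across the 13459 tested probe sets that were not members, ppi2 replicate 1 correlated with wild type replicate 2 at r = 0.981. The correlation of the high arrays was 0.952, that of the ppi2 arrays 0.837 and that of the wild-type arrays 0.816. The values run over genes, and genes are not independent of each other. The crossed likeness was thus present without the 145 probe sets. Among 18 hybridisation controls the median signal was 840.0 and 1669 in ppi2 against 1514 and 1106 in wild type, also higher on the high arrays. Among 27 poly-A spike controls it was 1202 and 363 against 1706 and 462, higher on the replicate 1 array of each group. The part of either in the result was not tested. No probe set was assigned to TOC159, so the labels could not be checked by it, and arrays are named by their labels throughout. Whether 2 arrays were exchanged between the groups cannot be told from these values. Every difference between ppi2 and wild type given below holds only if the labels are right, and after such an exchange the contrast of high and low arrays would be the one between the genotypes.

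Of the 145 probe sets, 69 were annotated with 1 gene, 3 with several genes and 73 with none here. All 69 genes lie on nuclear chromosomes. For the other 76 the genome of origin could not be checked. The label of the set as genes that follow the antenna genes held for part of the antenna genes that could be read. These were the 3 LHCB4 genes only. LHCB4.1, a form of the CP29 antenna protein, read 10805.5 and 35278 on the ppi2 arrays (replicates 1 and 2, in that order throughout) and 45545 and 10343 on the wild-type arrays. LHCB4.2, which met the thresholds and was left out by name, read 840.5 and 29459 against 30097 and 714. LHCB4.3 read 167 and 202 against 315 and 198, where the lower of the high arrays was 1.02 times the higher of the low arrays.

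The summed signal of the 145 probe sets was 84840.4 and 628554 in ppi2 against 637452 and 84287 in wild type. The median fold between the lower high array and the higher low array was 5.96, with 40 probe sets at 8-fold or more, 7 at 16-fold or more and a highest value of 67.8. In whole-plant RNA a smaller share of green cells and less RNA per cell cannot be told apart. With the arrays exchanged in the rule, 119 probe sets passed, organelle genes left out.

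**Figure D1:**
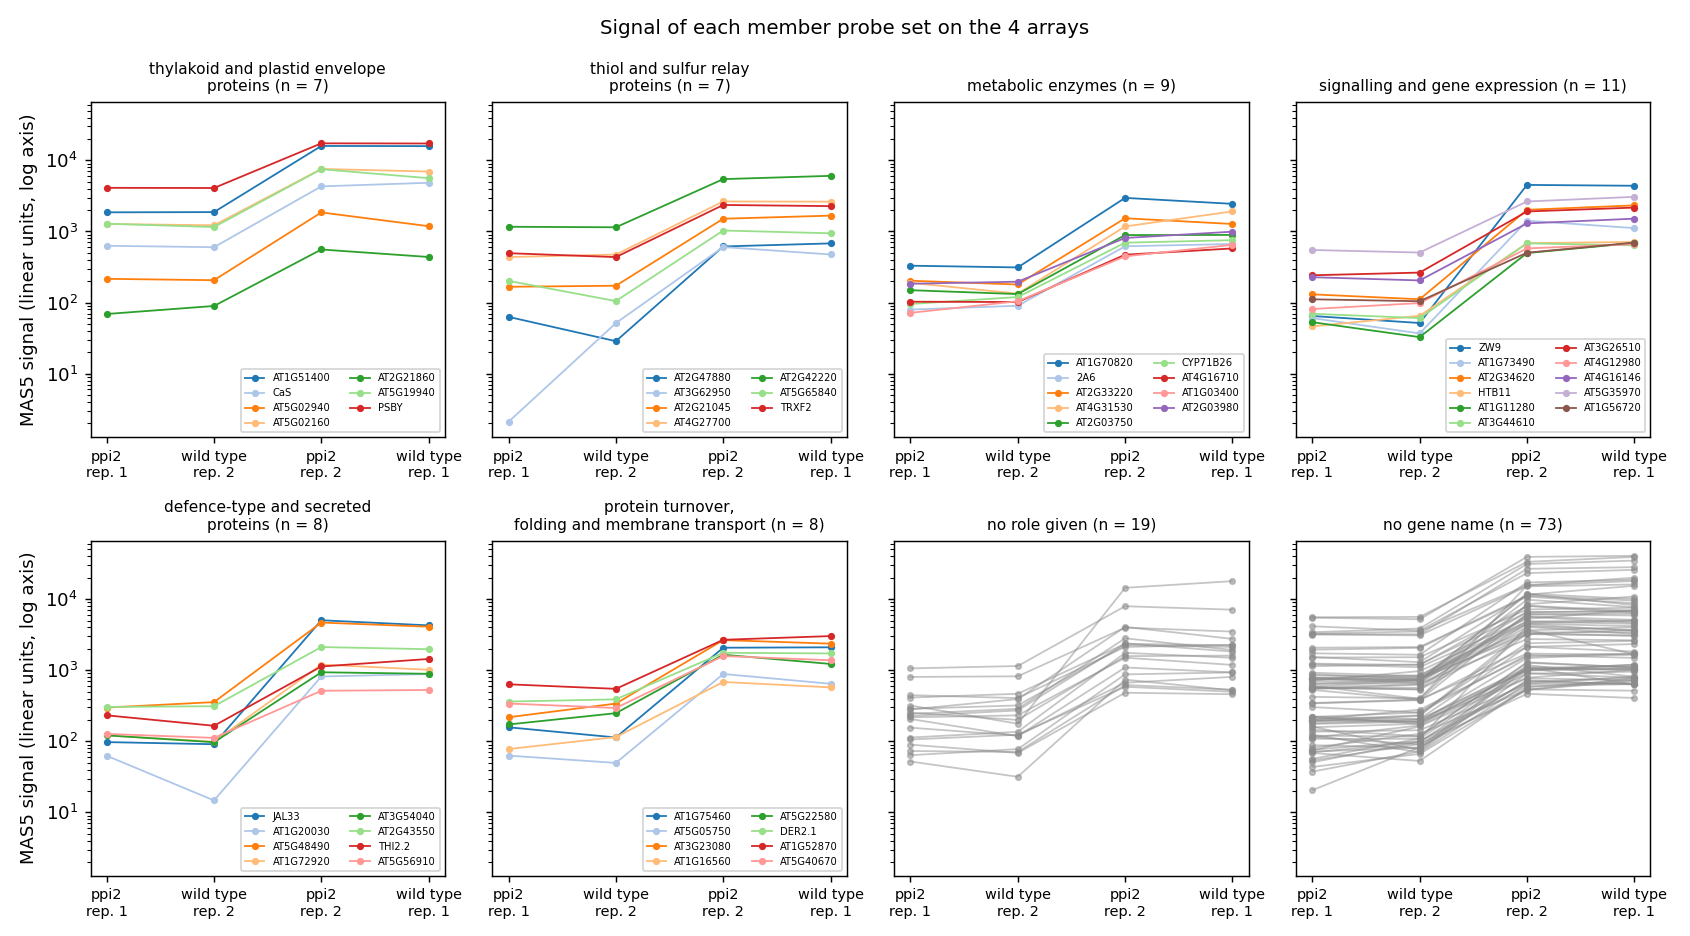
Signal of each of the members (linear MAS5 units on a log axis) on the 4 arrays, in panels by function; each line joins the values of 1 probe set, and the low arrays stand left of the high arrays. In every panel the lines step up between the low and the high arrays, as the rule required. AT3G62950 stands apart at 2.11 on ppi2 replicate 1. The 3 probe sets with several genes are not drawn.

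Genes of thylakoid and plastid envelope proteins made up 7 of the 50 members to which a role was given. AT1G51400, which encodes a small protein of photosystem II, read 1859 and 15956 in ppi2 against 15867 and 1874 in wild type. PSBY (AT1G67740), a small membrane subunit of the same photosystem, read 4110.2 and 17365 against 17279.7 and 4088. For both genes the values of the high arrays lay close to each other, as did those of the low arrays. The labelled groups overlapped fully, as they must under the rule. CaS (AT5G23060), a calcium-sensing protein of the thylakoid membrane, read 629 and 4313 against 4841 and 601. AT5G02160, whose product binds a subunit of the thylakoid protease FtsH, read 1275 and 7573 against 6970.0 and 1221. AT5G19940, a fibrillin of plastid lipid bodies and membranes, read 1286 and 7512 against 5617 and 1155. These genes thus gave clear signal on all arrays, the low ones included. AT5G02940, an ion channel of the plastid envelope, read 216 and 1853 against 1187 and 206, and here the high arrays themselves differed, with more on ppi2 replicate 2. AT2G21860, a relative of the xanthophyll-cycle enzyme violaxanthin de-epoxidase, read 69.1 and 558 against 438 and 89.6. The folds of the 7 genes lay between 4.2 and 8.47.

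The chloroplast reduces target enzymes in the light through thioredoxins, and 7 members belonged to thiol and sulfur relay families. TRXF2 (AT5G16400), an f-type thioredoxin that activates Calvin cycle enzymes, read 495 and 2359 in ppi2 against 2273 and 436 in wild type. AT5G65840, of the thioredoxin superfamily, read 202 and 1032 against 943 and 105. The low arrays of AT5G65840 lay further apart than its high arrays, with ppi2 replicate 1 above wild type replicate 2. Rhodanese domains, which carry sulfur or serve as protein anchors, were found in 3 members. AT2G42220 read 1165 and 5449.6 against 6060.3 and 1146, AT4G27700 read 437 and 2646 against 2623 and 474, and AT2G21045, an arsenate reductase, read 167 and 1511 against 1671 and 173. Glutaredoxins of the plant-specific CC type were represented by AT2G47880, with 63.0 and 616 against 680 and 28.7, and by AT3G62950. The latter read 2.11 and 604 against 475 and 51.5, the lowest value of any member on any array. Its low arrays lay far apart, and its fold of 9.23 was taken against wild type replicate 2.

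Metabolic enzymes outside photosynthesis accounted for 9 members, and their folds were narrow, from 4.12 to 7.41. AT1G70820, of the phosphoglucomutase family, whose enzymes move phosphate on glucose in starch and sucrose metabolism, read 330.3 and 2968 in ppi2 against 2447 and 312 in wild type. AT4G31530, a nucleotide-binding Rossmann-fold protein, read 190.0 and 1177 against 1916 and 134, and was the member of this group whose high arrays differed most. AT2G33220, the GRIM-19 subunit of mitochondrial complex I, read 203 and 1535 against 1275 and 180 and is not a plastid protein. The sulfotransferase gene AT2G03750 read 149 and 890 against 894 and 132. The esterase and lipase family gene AT2G03980 read 184 and 810.5 against 994 and 197. The high arrays were nearly equal for AT2G03750, while for AT2G03980 wild type replicate 1 was the higher. CYP71B26 (AT3G26290), a cytochrome P450, read 95.6 and 696 against 755 and 120. A glycosyltransferase gene, AT4G16710, read 103 and 471 against 577 and 102. Oxygenases that use 2-oxoglutarate were represented by 2A6 (AT1G03410), with 79.7 and 619 against 667 and 90.3, and by its neighbour AT1G03400, with 71.8 and 447 against 649 and 104. They were the 1 pair of adjacent genes among the members, and whether their probe sets detect each other's transcript was not tested.

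Defence-type and secreted proteins included members with very large contrasts. JAL33 (AT3G16450), a jacalin-type lectin that binds sugars, read 97.6 and 5045 in ppi2 against 4274 and 91.1 in wild type, a fold of 43.8. AT5G48490, a lipid transfer protein related to the systemic resistance protein DIR1, read 299 and 4678 against 4098 and 356. Both genes thus stayed under 400 units on both low arrays. The defensin-like gene AT2G43550 read 305 and 2118 against 1975 and 312. THI2.2 (AT5G36910), a thionin of the type that damages microbial membranes, read 232 and 1129 against 1440.0 and 165. AT1G72920, with the TIR domain of intracellular immune receptors, read 121 and 1199.8 against 1015 and 98.8. As the rule required, none of these was high on both arrays of a labelled group. AT3G54040, of the photoassimilate-responsive PAR1 family, read 121 and 936 against 891 and 97.2. The thaumatin family gene AT1G20030 read 62.7 and 817 against 883 and 14.8, so its low arrays differed by more than its high arrays. AT5G56910, of the cystatin family of protease inhibitors, read 127 and 514 against 527 and 112.

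Signalling and gene expression held 11 members, among them the largest fold of all. ZW9 (AT1G58270), a TRAF-like protein, read 64.8 and 4519 in ppi2 against 4394 and 51.6 in wild type, a fold of 67.8. AT1G73490, an RNA-binding protein, read 60.5 and 1418 against 1116 and 36.8. AT2G34620, of the mTERF family that acts on organelle gene expression, read 131 and 2018 against 2327 and 111. In these 3 genes the low signals lay between 36.8 and 131. The helicase-type gene AT5G35970 read 549 and 2641 against 3070.0 and 506. AT3G26510, which carries a PB1 domain for protein contacts, read 242 and 1911 against 2169 and 264. AT4G16146, of a family related to cAMP-regulated phosphoproteins, read 227 and 1300.1 against 1515 and 205. In all 3 the wild type replicate 1 array gave the highest value. The protein kinase genes AT3G44610, AT1G56720 and the receptor kinase gene AT1G11280 had folds of 9.16, 4.52 and 9.39, and AT4G12980, an auxin-responsive membrane protein, had 5.87.

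HTB11 (AT3G46030) encodes histone H2B, a core protein of chromatin that is made in dividing cells. It read 46.2 and 685 in ppi2 against 713 and 65.2 in wild type. The other H2B genes read here did not share that size of contrast, and HTB2 came nearest. HTB2 read 190 and 834 against 592 and 186, HTB4 read 1399 and 2103 against 1935 and 1417, and HTB1 read 965 and 698 against 844 and 1037.

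Protein turnover, folding and membrane transport held 8 members. AT1G75460, with the substrate-binding domain of LON proteases, read 158 and 2074 in ppi2 against 2101 and 113 in wild type. DER2.1 (AT4G21810), a derlin that works in the degradation of misfolded proteins at the endoplasmic reticulum, read 363 and 1760.5 against 1722 and 389.8. AT5G05750, a DnaJ-type co-chaperone, read 63.0 and 886 against 645 and 49.7. For DER2.1 the arrays within the high and within the low side were nearly equal, while AT5G05750 was higher on the ppi2 array of each side. AT1G52870, of a family of peroxisomal and organelle membrane proteins, read 634 and 2680.2 against 3022 and 547. AT3G23080, with a lipid-binding START-type domain, read 218 and 2652 against 2366 and 339.8. AT5G22580, with a stress-responsive barrel domain, read 173 and 1653 against 1226 and 249. The low arrays of these last 2 genes differed in the opposite direction to their high arrays. AT5G40670, a PQ-loop transporter related to cystinosin, read 340.4 and 1584 against 1381 and 294, and AT1G16560, a Per1-like protein, read 77.9 and 684 against 574 and 115.

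No role was given to 19 members with a gene identifier. AT2G25510 was the most extreme, with 319 and 14434 in ppi2 against 17904 and 177 in wild type, a fold of 45.2. AT3G22240 read 1062 and 7949 against 7104 and 1146. AT1G67865 read 281 and 4067 against 2759.8 and 393. The high array labelled ppi2 gave the larger value for AT1G67865 and the high array labelled wild type for AT2G25510. AT1G21500 read 805 and 3972 against 3495 and 821, AT5G01350 read 413 and 2354 against 2241 and 466, and AT5G57345 read 446 and 2130.1 against 2273 and 406. Folds of about the size of AT5G48490 were seen for AT5G44580 (10.99), with 113 and 1757 against 1496 and 136, and for AT3G22970, with 63.8 and 874 against 933 and 77.7. The 73 probe sets without a gene name had folds from 4.04 to 33.4 and signals up to 40650.3 on the high arrays. The 3 probe sets with several genes had folds from 5.02 to 9.56.

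The members that only just met the fold threshold were AT1G71970, at 4.02 with 106 and 585 against 498 and 124, AT5G56910 at 4.04 and AT5G40670 at 4.06. Just outside lay AT1G52220 at 3.99, with 1278 and 5403 against 5656 and 1353, AT1G23130 at 3.97 and AT5G16250 at 3.94. The values on either side of the threshold thus lay close together.

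Gene families showed how far the contrast was shared by relatives. They were grouped by symbol after the values had been seen, so they are a description, and the measure is the mean log2 signal of the high arrays minus that of the low arrays, with a pseudocount of 7.99. DER2.1 had 2.19, while DER1 read 650.5 and 677 in ppi2 against 686 and 611 in wild type, and DER2.2 read 804 and 769.8 against 827 and 844. Neither of the other derlins thus differed by much between any of the arrays. JAL33 had 5.51, against 1.17 for its neighbour JAL34, which read 2326 and 5974 against 4793 and 2423, and 0.90 for JAL22. JAL23, too dim to test, read 72.9 and 66.2 against 67.8 and 60.3. CYP71B26 had 2.67, while its 6 tested relatives in subfamily 71B lay between -0.39 (CYP71B5) and 0.55 (CYP71B28). Other relatives were too dim to test. Of these, CYP71B24 read 10.5 and 67.1 in ppi2 against 74.7 and 15.3 in wild type. CYP71B38 read 7.34 and 70.5 against 36.6 and 5.01, and CYP71B35 read 66.2 and 201 against 152 and 58.1. CYP71B24, CYP71B38 and CYP71B35 were also more than 2-fold higher on the high arrays. The remaining dim relatives were not. Among them, CYP71B22 read 76.3 and 85.7 against 79.1 and 60.2, and CYP71B25 read 4.75 and 9.76 against 70.3 and 46.0. TRXF2 had 2.3, above the m-type thioredoxin ATHM2 (0.85) and the x-type THX (0.48). The photosystem II subunits behaved more alike, with 2.08 for PSBY, 1.5 for PSBW and 1.05 for PSB27. Whether relatives share signal through their probes was not tested.

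**Figure D2:**
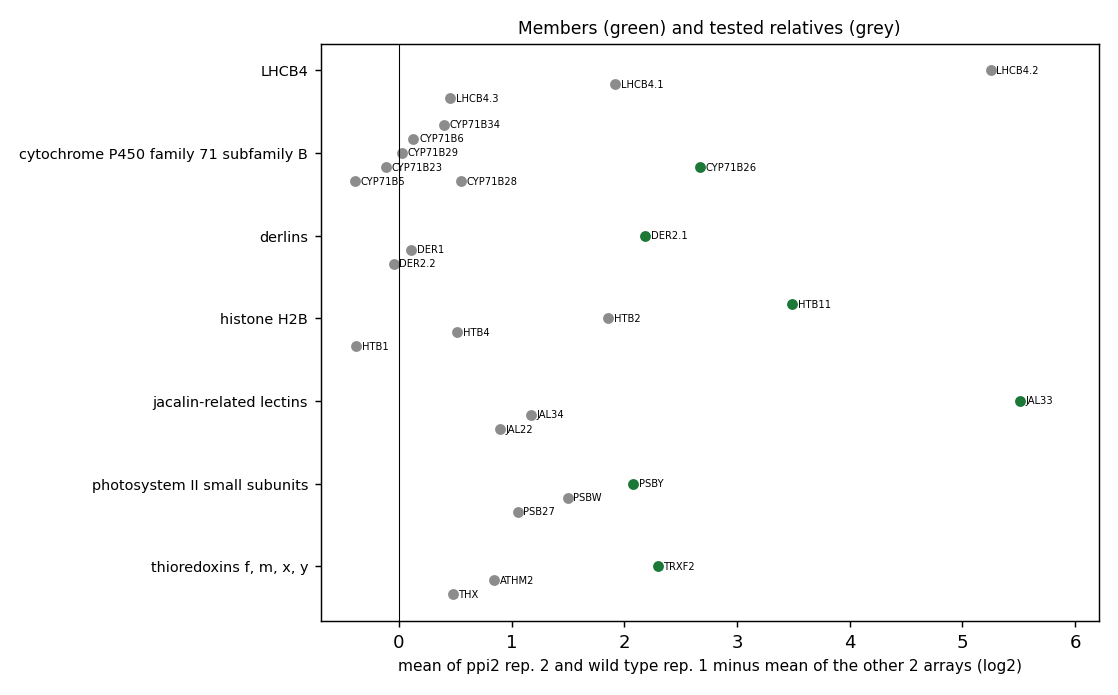
Mean log2 signal of the high arrays minus that of the low arrays for members (green) and tested relatives of the same family (grey, LHCB4 genes included for reference). The tested relatives of DER2.1 and CYP71B26 lie between -0.39 and 0.55, those of JAL33 at 0.90 and 1.17, and PSBY, PSBW and PSB27 between 1.05 and 2.08.

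Position in the genome was not used in the choice. In gene order on the RefSeq assembly TAIR10.1, 66 genes next to a member, other than members, had a probe set with 1 gene, and 39 of them were tested. Of these 39, 5 or 12.8% were at least 2-fold higher on both high arrays than on both low arrays, against 4.97% of 7168 named and tested genes that were no members. An example, picked after its values were seen, is AT1G73480, next to AT1G73490, with 599 and 1855 in ppi2 against 1756 and 553 in wild type. A count of 5 is small, and neighbours with overlapping transcripts were not separated. By chromosome, 21, 10, 11, 8 and 19 of the 69 genes lay on chromosomes 1 to 5, or 30.4%, 14.5%, 15.9%, 11.6% and 27.5%, where all named nuclear genes on the array gave 25.9%, 16.5%, 20.5%, 14.6% and 22.5%.

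The comparison the labels define, ppi2 against wild type, is not the contrast that chose the members and was tested over all probe sets. None of the 145 members passed, and neither did any of the 13604 probe sets tested (0%, limma with Benjamini-Hochberg adjustment). At an unadjusted p under 0.05 there were 0 members, against 8 probe sets in all (0.0588%). The smallest unadjusted p of a member was 0.561 and its adjusted p was 1.0 (limma). Labelled differences of the members had a median of 0.01 on the log2 scale, with 77 above 0, and lay between -1.11 and 0.76. Over all tested probe sets the median was -0.01. These differences were as small as those of other probe sets, with a median size of 0.14 for members and 0.15 for all.

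The standard errors differed more. Their median was 1.32 for members and 0.38 for all tested probe sets, since each labelled group holds 1 high and 1 low array and the contrast that chose the members counts as spread. JAL33 had a labelled log2 difference of 0.17 ± 2.58 (SE, n = 2 arrays a group), PSBY of 0.01 ± 1.0 and DER2.1 of -0.04 ± 1.05. The fit therefore could hardly have called a member, and the count of 0 does not show that these genes are alike in ppi2 and wild type. The extremes were AT3G62950 at -1.11 ± 2.26, through its value of 2.11 on ppi2 replicate 1, and AT1G20030 at 0.76 ± 2.13, through 14.8 on wild type replicate 2. At the thresholds used to choose the members, 0 probe sets were higher on both ppi2 arrays (0%) and 0 were higher on both wild-type arrays (0%). Leaving out 1 array moved the members' median to 1.43 when ppi2 replicate 1 was left out and -1.40 when ppi2 replicate 2 was. For wild type the values were 1.41 for replicate 1 and -1.39 for replicate 2, so the sign followed the array left out. The choice of members by high and low arrays largely fixed this.

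**Figure D3:**
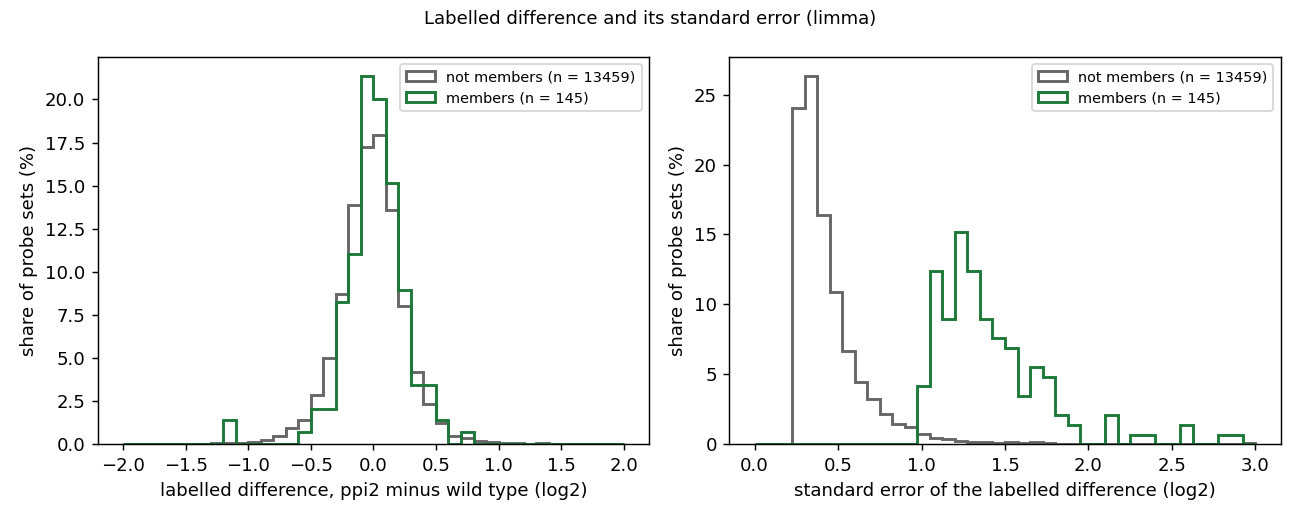
Share of probe sets by labelled log2 difference (ppi2 minus wild type, left) and by its standard error (right) for the 145 members and the 13459 other tested probe sets, from limma with 2 arrays a group. The differences overlap around 0, while the standard errors of the members, have a median of 1.32 against 0.37 for the others.

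Within each replicate number the members differed in opposite directions, as their choice required. The median log2 difference of the ppi2 array from the wild-type array was -2.80 in replicate 1 and 2.79 in replicate 2, where all tested probe sets had 0.02 and -0.05. Each rests on 1 array per arm, with no error. Set against its crossed partner, the ppi2 array gave the higher value in 75 of 145 members on the high arrays and in 74 of 145 on the low arrays. It was higher on both sides in 32 members (22.1%) and lower on both in 28 (19.3%), where all tested probe sets had 22.5% and 24.8%. The high arrays lay within 1.5-fold of each other in 141 members and the low arrays in 123, and the share over all probe sets is not given here. The rule asked for bright high arrays and let the low ones be dim. The median size of the log2 difference between the high arrays was 0.18 for members and 0.26 for all tested probe sets. Between the low arrays it was 0.18 and 0.16. The 6 function groups gave median labelled differences from -0.14 for the metabolic enzymes to 0.12 for the defence-type and secreted proteins.

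**Figure D4:**
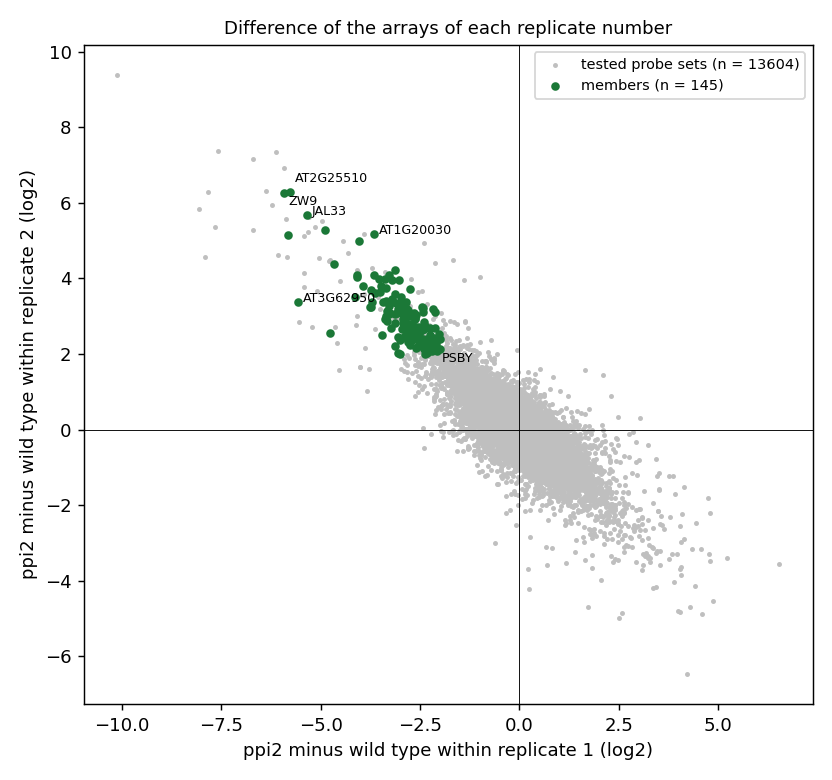
Log2 difference of the ppi2 array from the wild-type array within replicate 1 (horizontal) and within replicate 2 (vertical) for 13604 tested probe sets (grey) and the 145 members (green), 1 array per arm. The members lie at the upper left, with medians of -2.80 and 2.79, at the end of a band formed by all probe sets.

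Pathway lists placed the members among other genes, with 18 lists of which 16 had at least 1 probe set with 1 gene. The lists were chosen with earlier results of these data known. No gene of any list passed the labelled test (limma). Of 39 nuclear photosystem and electron transport subunits, 7 were tested, of which 2 met the thresholds (PSBY and PSAN). Of the 7, 6 were at least 2-fold higher on both high arrays, where 5.87% of 7237 named and tested genes were. Their median contrast was 1.5, where all tested probe sets had -0.04. Of 28 chlorophyll and heme synthesis enzymes 9 were tested, 1 met the thresholds (PORB), 5 were at least 2-fold higher and 1 at least 2-fold lower on the high arrays (median 1.47). The 3 tested Calvin cycle genes had a median of 1.67, made up of the enzymes SBPASE and PRK at 2-fold or more and RCA, the activase of Rubisco, below it. The 4 photorespiration genes had a median of 0.81 and none was 2-fold higher. The medians of these plastid pathways lay above that of all tested probe sets. They use the contrast that chose the members and include PSBY, PSAN and PORB, so they are a description only. Most genes on these lists had no probe set with 1 gene here. Of 21 antenna genes 3 were tested, 1 met the thresholds (LHCB4.2) and 2 were at least 2-fold higher. Starch and sucrose metabolism had 1 of 2 tested genes at that size.

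Other lists did not follow as a whole. In the cold-response list COR15A and COR15B met the thresholds, while COR47, a dehydrin, read 12620 and 9853 in ppi2 against 6876 and 14086 in wild type. In the auxin list IAA29 met them, while GH3.3 and WES1, both auxin-conjugating enzymes, were within 2-fold. The clock gene GI read 1623 and 2114 against 2272 and 1565. Of the 5 plastid thioredoxins and antioxidant enzymes none met the thresholds (median 0.57), unlike TRXF2, which was not in the list. The 2 glucosinolate genes had a median of -0.45, and the 1 tested gene of plastid division and sigma factors had 0.08. The probe sets of the light signalling and flavonoid lists were too dim to test, and the cuticle and plastid import lists had none.

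**Figure D5:**
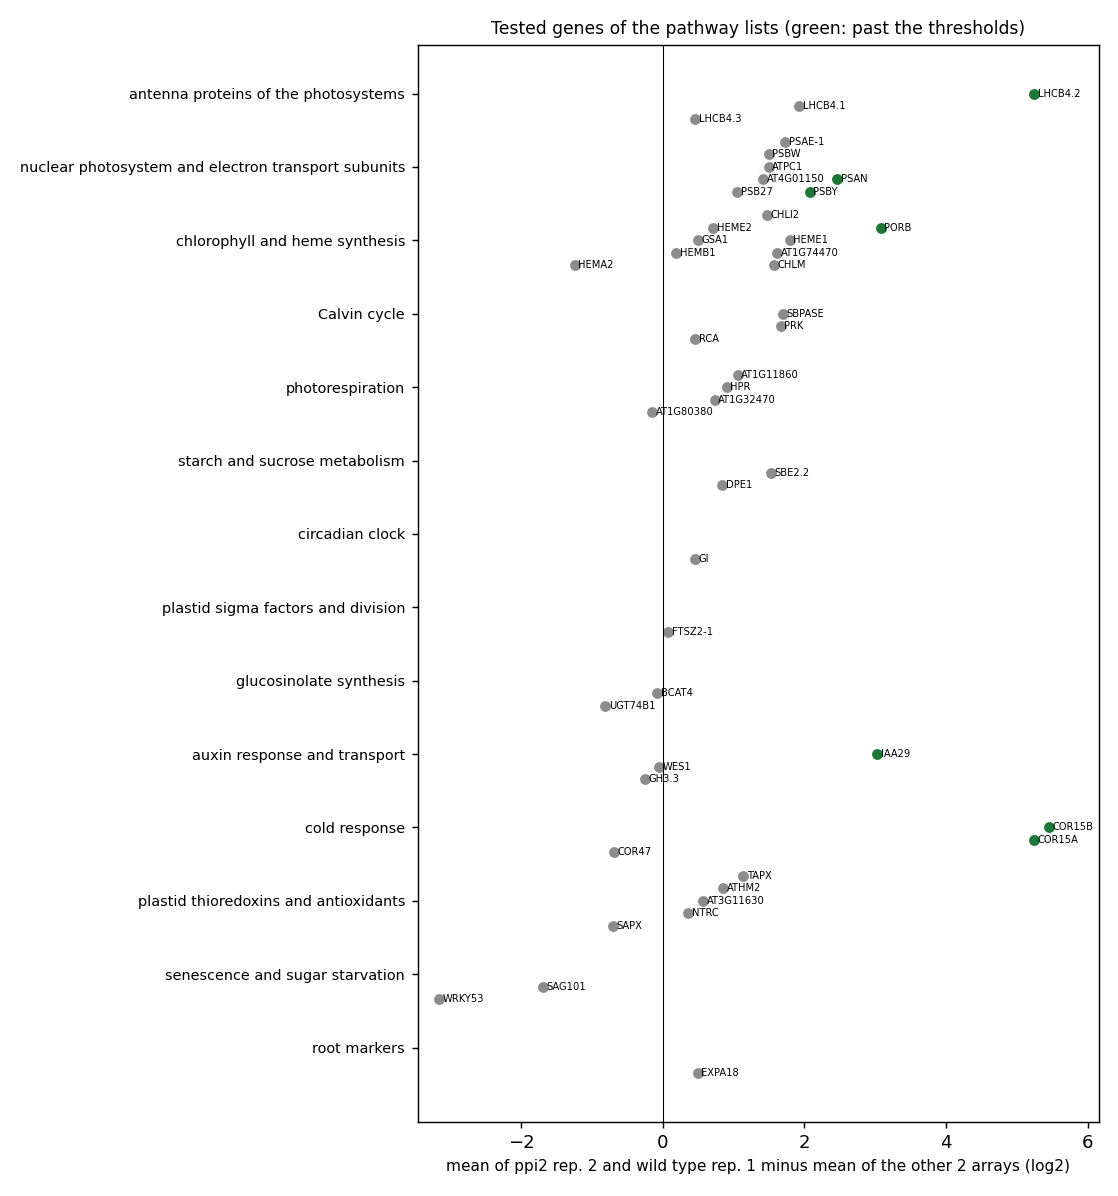
Mean log2 signal of the high arrays minus that of the low arrays for each tested gene of the pathway lists, 1 point a gene, green where the gene met the thresholds of the members. COR15A, COR15B and LHCB4.2 lie beyond 5, and the senescence genes SAG101 and WRKY53 below 0.

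Markers of senescence differed between the high and the low arrays, and no root marker separated them by 2-fold. Of 7 genes of senescence and sugar starvation 2 had a probe set, SAG101 and WRKY53, and both were at least 2-fold lower on the high arrays. The share of all tested genes at that size in that direction is not given here. Their summed signal was 2613 and 408 in ppi2 against 385 and 2719 in wild type, and its part in the result was not tested. Of 7 root markers 2 had a probe set, EXPA7 and EXPA18, with a summed signal of 194 and 234 against 249.6 and 184, and only 1 of the 2 was bright enough to test.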

How the data were processed

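Total RNA of whole plants was labelled with biotin and hybridised to 4 single-colour Affymetrix arrays, per the labels' protocols. The intensity values deposited by the authors are probe-set signals on a linear scale. They were made with MAS5, per the submitters' processing notes. The sources used here do not give its version or scaling. No detection calls were used. The arrays were on a common scale, with median signals of 193, 201, 213 and 198, and the number of arrays limits the precision.

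Groups and replicate numbers came from the sample titles. Control probe sets (64) were left out. Genes were named from GEO's platform annotation, and all 69 members with 1 gene were found in the RefSeq table of assembly TAIR10.1, used for names, chromosomes and gene order. Roles are textbook knowledge; members were sorted into 6 function groups by hand after their values were seen.

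For the fit, a pseudocount of 7.99 (the 10th percentile) was added, log2 taken, the brightest probe set kept for each gene (157 left out) and 13604 probe sets tested whose mean over arrays reached 124 (the 40th percentile). The test of ppi2 against wild type was limma's, version 3.58.1 under R 4.3.3 (eBayes with trend after lmFit, two-sided, Benjamini-Hochberg adjustment, threshold 0.05, 2 residual and 2.59 prior degrees of freedom). The step was tested on simulated data with independent noise smaller than the members' median spread between replicates, 1.97 on the log2 scale. That run does not speak for the members. The members and lists were chosen with earlier results of these data known. In each function group the text names the 6 members with the highest lower signal of the high arrays and the 3 with the largest fold; the other members named were added after their values were seen. Deviations from the group means of same-numbered arrays correlated at -0.82, which restates the crossed likeness of the arrays. It does not show whether same-numbered arrays were prepared together. P-values reflect the spread of these 4 arrays only. Alternatives were quantile and median scaling, other pseudocounts, filters and thresholds, no trend, the replicate block and leaving out each array. Figures were drawn with matplotlib 3.10.9. Promoter sequences were not analysed here.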

Additional observations from a re-analysis of the deposited data

How the results depend on the processing

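The count of probe sets past the adjusted threshold, and that of members, was 0 under each alternative run (limma), including the replicate block (0 members, median 0.01); the block changed no call. With crossed replicate numbers as a block, added after seeing the data, the adjusted counts were 0. At an unadjusted p under 0.05 (limma) 6 members were called, and the count over all probe sets in that fit is not given here. That block is the split into high and low arrays that chose the members, so it takes their contrast out of the spread. The 6 are not read as a result about the members. The members' median labelled difference stayed between 0.00 and 0.07 without leaving out arrays, and ranged from -1.40 to 1.43 when 1 array was left out. Of 448 values of the 50 members named by rule under other settings, 14 had the other sign, and of 200 with an array left out, 100 did. The choice of members by high and low arrays largely fixed both results with an array left out, so they do not measure stability. The rule gave 259 probe sets with 3 times in place of 4 and 40 with 8 times, since the threshold itself moved. It gave 150 after quantile normalization, of which 140 were members, and 133 after median scaling, of which 132 were. Other floors gave 107 to 172, and leaving out 1 array 170 to 199. Low signals without detection calls limit the folds of the 27 members under 100 on both low arrays. The promoter comparison with its 2 alternatives was not run.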
